A study of Oryctolagus cuniculus with 39 samples.

Results

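GMPR and 7 other enzymes of purine nucleotide metabolism were followed through the loss of brown fat character in the growing rabbit. The members were GMPR, GMPR2, IMPDH1, IMPDH2, GMPS, HPRT1, ADSL and GUK1, taken as a list of symbols from the expression table of the stromal vascular fraction and matched by gene identifier to the table of whole tissue. All 8 were found in both tables, out of 20589 identifiers in the first, 20183 in the second and 19625 in both. GMPR was chosen by its measured FPKM in whole fat, where its level was lower at later ages. Its values there are therefore given as a description with no test, and only the 7 other members were tested in that tissue.

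Every animal was a New Zealand White rabbit, with no treatment or genetic change named in the labels. The 36 bulk RNA libraries formed 12 groups of 3: whole interscapular brown adipose tissue (total iBAT), the stromal vascular fraction of that depot (iBAT SVF) and the stromal vascular fraction of the subscapular depot (sBAT SVF), each at day 1, 3 weeks, 6 weeks and 12 weeks of age. The stromal vascular fraction (SVF) is what remains of a dissociated fat depot once floating adipocytes are removed, and holds progenitor, vascular, blood and immune cells. The labels do not say whether the 3 libraries of a group came from separate animals, so the p-values measure the spread between these libraries, which may be technical. Levels are in FPKM, fragment counts scaled to transcript length and library size. The total iBAT and SVF tables were normalized separately, and no test was made between them.

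Cells make guanine nucleotides by turning inosine monophosphate (IMP) into xanthosine monophosphate with IMP dehydrogenase (IMPDH1 or IMPDH2) and then into guanosine monophosphate (GMP) with GMP synthase (GMPS). GMP reductase (GMPR or GMPR2) runs the opposite way, from GMP to IMP, so that the reductase and the dehydrogenase together set up a loop between both pools. HPRT1 salvages hypoxanthine and guanine, ADSL acts both in the building of IMP and in its conversion to AMP, and GUK1 phosphorylates GMP to GDP. Purine nucleotides bind and inhibit UCP1, the proton carrier through which brown adipocytes make heat, and GMPR is known as a gene that cold exposure induces in rat brown fat.

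The libraries were first checked against their labels. In total iBAT, 7 of the 9 brown adipocyte markers in the table (10 listed) were detected, and their summed level went from 5914 to 6619 FPKM at day 1 to 25.1 to 35.5 FPKM at 12 weeks. Over the same ages the summed level of 7 general adipocyte markers went from 1842 to 2245 FPKM to 10456 to 10526 FPKM. Progenitor markers in the SVF (2812 to 31004 FPKM over 7 genes) were higher than brown adipocyte markers (4.99 to 113 FPKM over 9 genes, 5 detected). That order also held in total iBAT from 3 weeks on, so it does not tell the fractions apart. Progenitor sums were 819 to 1270 FPKM in total iBAT at day 1 and reached 10009 FPKM at 6 weeks, within the SVF range. Some libraries depart from their group in ways that touch values given here. Replicate 3 of total iBAT at 3 weeks held skeletal muscle transcripts (summed level 5608 FPKM, against 28.1 and 18.4 FPKM in the other libraries of the group). Muscle transcripts were also high in 5 of the 6 day 1 SVF libraries (592 to 2559 FPKM) and in replicate 2 of the sBAT SVF at 3 weeks (1760 FPKM). ADORA1 and LOC100009266 together took 63.9% to 80.4% of all FPKM in the sBAT SVF at 3 weeks and 26.2% to 37.3% in the sBAT SVF at day 1, against at most 20.3% in any other library. The level of every other gene in those libraries is lowered in proportion. Whether these values stem from transcripts of the 2 named genes was not tested, since the reads were not analysed here.

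GMPR was the member with the widest range in whole fat. Its level at day 1 was 404, 265 and 699 FPKM in the 3 total iBAT libraries, at 3 weeks 51.0, 39.8 and 44.0 FPKM, at 6 weeks 1.67, 0.82 and 1.97 FPKM, and at 12 weeks 0.97, 0.68 and 0.27 FPKM. Every library at day 1 lay above every library at 3 weeks, and every library at 3 weeks above those at 6 weeks, whereas the ranges at 6 and 12 weeks overlapped. The means were 456 ± 222, 44.9 ± 5.66, 1.49 ± 0.597 and 0.64 ± 0.352 FPKM (SD, n = 3). The day 1 mean was thus 10.2 times that at 3 weeks, 307 times that at 6 weeks and 712 times that at 12 weeks. The summed level of 7 erythroid markers in the day 1 libraries was 126, 62.2 and 155 FPKM, in the same order as GMPR, and its part in the spread was not tested. UCP1 in these day 1 libraries was at 5102, 5163 and 5780 FPKM, not in the order of GMPR. Its group means went from 5348 FPKM to 828, 8.72 and 2.94 FPKM over the same ages. Brown adipocyte markers (9 genes, UCP1 included) summed to 5926, 5914 and 6619 FPKM in the day 1 libraries, in the order of GMPR. The part of brown adipocytes in the spread was not tested either. In whole tissue, fewer cells of a type and less RNA per cell cannot be told apart.

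The paralog GMPR2 carries out the same reaction. Its level in total iBAT was 26, 22.7 and 17.4 FPKM at day 1, 23.7, 20.1 and 20.7 FPKM at 3 weeks, 24.9, 26.1 and 26.6 FPKM at 6 weeks and 29.0, 31.4 and 25.7 FPKM at 12 weeks. All 12 libraries thus lay within a narrow band, and the ranges at day 1 and 12 weeks overlapped. The log2 difference between 12 weeks and day 1 was 0.38 (SE 0.15, limma with Benjamini-Hochberg adjustment, adjusted p = 0.0478). This rise was not called after median ratio scaling of the libraries (0.17, adjusted p = 0.33). It was called under 4 of 15 alternatives (adjusted p 0.0176 to 0.358), and the joint test over the 4 ages did not pass (adjusted p = 0.0771).

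The more abundant reductase transcript in whole fat was thus a different one at each end of the series. FPKM is scaled to transcript length, so levels of both genes can be set side by side, and their ratio does not depend on library scaling. GMPR was 22.5 ± 15.5 times GMPR2 at day 1, 2.09 ± 0.0897 times at 3 weeks, 0.0575 ± 0.0229 times at 6 weeks and 0.0218 ± 0.0115 times at 12 weeks (SD, n = 3). The ratio was above 1 in all libraries at day 1 and 3 weeks and below 1 in all libraries at 6 and 12 weeks. Since GMPR was chosen for its fall, the ratio is a description as well.

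**Figure D1:**
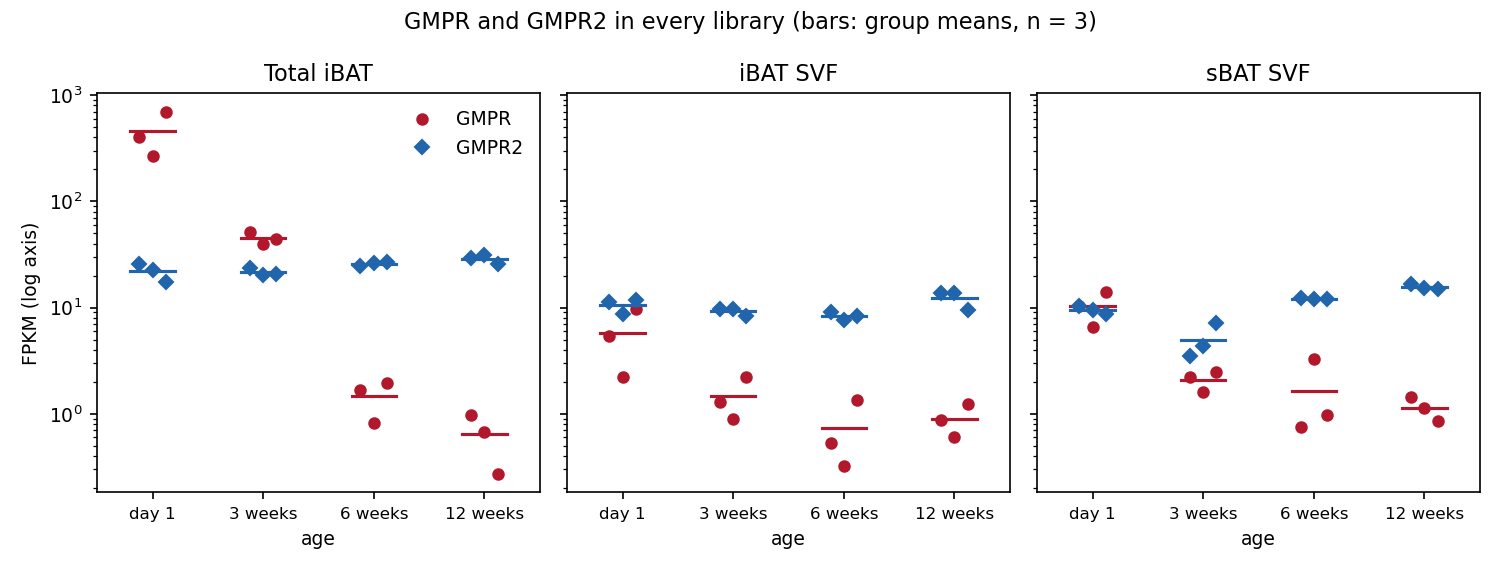
GMPR (circles) and GMPR2 (diamonds) in each library, as FPKM on a log axis against age, in total iBAT, iBAT SVF and sBAT SVF; bars are group means of 3 libraries. GMPR runs from 699 down to 0.27 FPKM in total iBAT, while GMPR2 stays between 17.4 and 31.4 FPKM there.

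Among the 7 other members in total iBAT, 4 were called at 3 weeks against day 1 (1 higher, 3 lower), 5 at 6 weeks (1 higher, 4 lower) and all 7 at 12 weeks (2 higher, 5 lower), at an adjusted p under 0.05 over 12853 genes. The share of all genes called was 41.7%, 50.7% and 47.0% in these comparisons. By direction, 31.8%, 35.1% and 31.3% of all genes were called higher and 9.97%, 15.6% and 15.7% lower. The count of members at 3 weeks dropped from 4 to 2 when any 1 library of day 1, or replicate 1 or 2 of 3 weeks, was left out. The median log2 difference over the 7 members at 12 weeks was -0.67, beside 0.19 over all genes, and median ratio scaling moved these to -0.88 and 0.02. After that scaling the members' counts were 4 lower and none higher at 3 weeks, and 1 higher and 5 lower at both 6 and 12 weeks, with 17.7%, 24.8% and 23.6% of all genes higher and 20.4%, 24.7% and 22.6% lower. In a joint test over the 4 ages 6 of the 7 members were called, as were 55.6% of all genes.

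GMPS, which makes GMP from xanthosine monophosphate, had the largest tested change. Its level was 76.7, 58.7 and 72.5 FPKM at day 1 and 13.9, 11.2 and 13.0 FPKM at 3 weeks. At 6 weeks it was 7.67, 10.4 and 11.1 FPKM, and at 12 weeks 9.70, 9.03 and 8.34 FPKM. The day 1 libraries stood apart from all 9 older ones, and the ranges at 6 and 12 weeks overlapped. The fall was already 2.36 on the log2 scale at 3 weeks (a difference of -2.36, SE 0.15, adjusted p = 4.22e-06) and reached -2.80 at 12 weeks (SE 0.15, adjusted p = 2.08e-07). On the FPKM scale the day 1 mean was 5.47 times that at 3 weeks and 7.68 times that at 12 weeks.

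IMPDH1, 1 of the 2 dehydrogenase isoforms, was not called at 3 weeks and fell at 6 and 12 weeks. Its level was 92.8, 126 and 138 FPKM at day 1, 130, 98.4 and 184 FPKM at 3 weeks, 40.2, 27.2 and 24.2 FPKM at 6 weeks and 23.1, 35.6 and 29.0 FPKM at 12 weeks. The day 1 and 3 week libraries overlapped each other and lay above all libraries at 6 and 12 weeks. The log2 difference from day 1 was 0.18 at 3 weeks (SE 0.26, limma adjusted p = 0.604), -1.94 at 6 weeks (SE 0.26, adjusted p = 9.53e-05) and -1.99 at 12 weeks (SE 0.26, adjusted p = 8.02e-05). The highest library at 3 weeks, replicate 3 with 184 FPKM, is the one with muscle transcripts. Without it the 3 week difference was -0.05 (adjusted p = 0.888).

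IMPDH2, the other isoform, moved little in whole fat. It was at 30.0, 27.2 and 31.7 FPKM at day 1, between 22.4 and 26.9 FPKM in the 6 libraries at 3 and 6 weeks, and at 20.1, 18.7 and 23.3 FPKM at 12 weeks. The 12 week libraries lay below all day 1 libraries, with a log2 difference of -0.50 (SE 0.12, limma adjusted p = 0.00485). At 3 weeks (-0.18, adjusted p = 0.254) and 6 weeks (-0.30, adjusted p = 0.0511) the difference did not pass the threshold as deposited, but it did after median ratio scaling (-0.47, adjusted p = 0.0115, and -0.57, adjusted p = 0.00267).

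**Figure D2:**
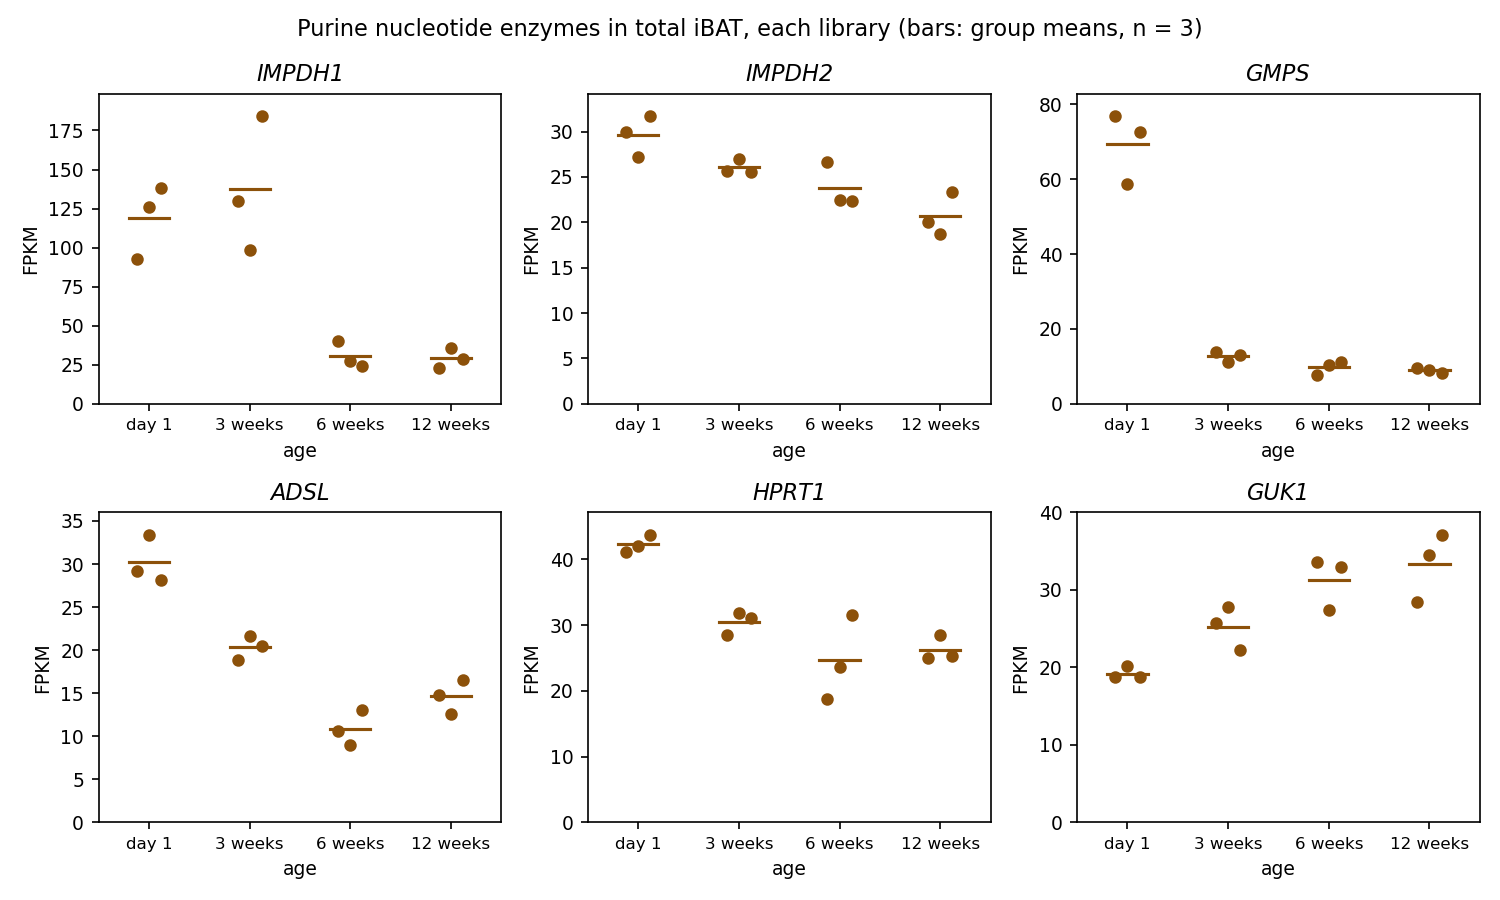
FPKM of 6 members in each total iBAT library against age, on linear axes that start at 0; bars are group means of 3 libraries. GMPS drops between day 1 and 3 weeks, whereas IMPDH1 drops between 3 and 6 weeks, from 98.4 or more to 40.2 FPKM or less.

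The makeup of the dehydrogenase transcripts changed accordingly. IMPDH1 made up 79.7% ± 3.62 of the summed IMPDH1 and IMPDH2 level at day 1, 83.3% ± 4.64 at 3 weeks, 55.6% ± 4.15 at 6 weeks and 58.2% ± 6.48 at 12 weeks (SD, n = 3). The lowest share at day 1 or 3 weeks was 75.6% and the highest at 6 or 12 weeks was 65.6%, so the younger and older libraries did not overlap. The log2 ratio of IMPDH2 to IMPDH1 was higher at 12 weeks than at day 1 by 1.51. It differed over the 4 ages in an exact permutation test of an F statistic (p = 0.00325, adjusted over the 3 tissues 0.00974, n = 12 libraries). That test covers all ages jointly and does not test 12 weeks against day 1. With the replicate number as a block the exact p was 0.0156 (adjusted 0.0469).

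In the SVF the isoforms stood the other way round. IMPDH1 made up 17.3% ± 4.84, 23.1% ± 5.81, 26.9% ± 5.22 and 21.7% ± 5.57 of the sum in the iBAT SVF at the 4 ages in order, with no difference over ages beyond the spread (exact permutation p = 0.23, adjusted 0.23, n = 12). Shares in the sBAT SVF were 19.5% ± 9.37, 41.2% ± 13.1, 26.5% ± 1.88 and 39.8% ± 6.98. They did not follow age in order, and 1 library at 3 weeks reached 56.0%. The exact permutation p over ages was 0.0286 there (adjusted 0.043, n = 12), but it rose to an adjusted 0.0859 with the replicate number as a block. It also exceeded 0.05 when any 1 of 10 of the 12 libraries was left out, reaching at most 0.13. As ratios within a library, the shares in total iBAT and SVF are free of library scaling, but the difference between the tissues was not tested.

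**Figure D3:**
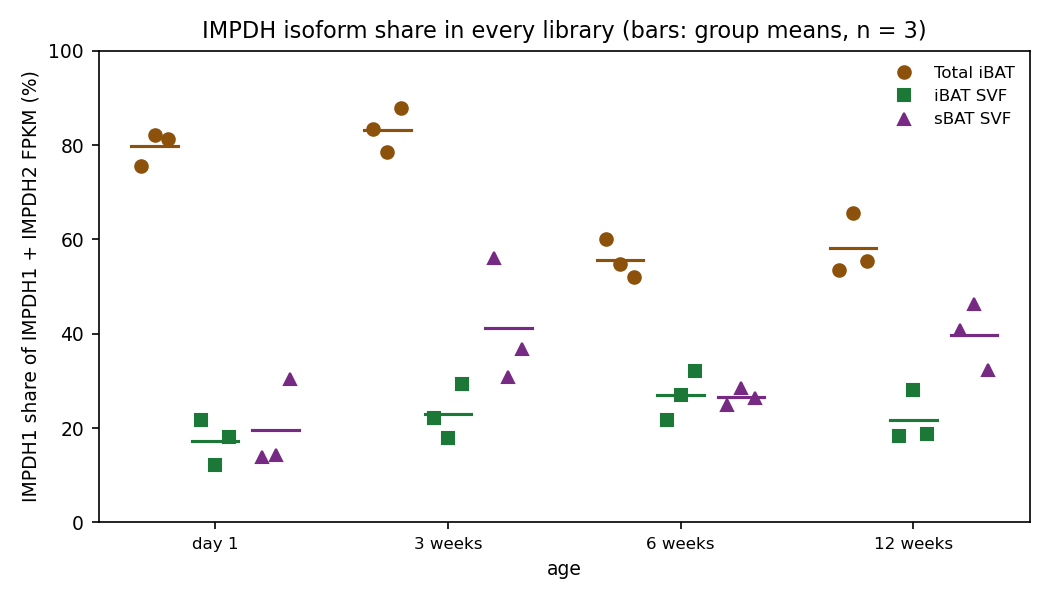
Share of IMPDH1 in the summed FPKM of IMPDH1 and IMPDH2, in percent, for each library by age; bars are group means of 3 libraries. All total iBAT libraries lie at or above 51.9%, and all iBAT SVF libraries at or below 32.1%.

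HPRT1, the salvage enzyme for hypoxanthine and guanine, was at 41.1, 42.1 and 43.7 FPKM at day 1 and at 24.9, 28.5 and 25.3 FPKM at 12 weeks in total iBAT. All 9 libraries from 3 weeks on, at 18.8 to 31.8 FPKM, lay below the day 1 libraries. The log2 difference was -0.46 at 3 weeks (SE 0.16, limma adjusted p = 0.0345), -0.78 at 6 weeks (SE 0.16, adjusted p = 0.0015) and -0.67 at 12 weeks (SE 0.16, adjusted p = 0.00432). The 3 week fall was called under 9 of 15 alternatives (adjusted p 0.00305 to 0.1).

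ADSL, adenylosuccinate lyase, was at 29.2, 33.4 and 28.2 FPKM at day 1, 18.8, 21.6 and 20.5 FPKM at 3 weeks, 10.6, 8.97 and 13.0 FPKM at 6 weeks and 14.8, 12.6 and 16.5 FPKM at 12 weeks. It was lowest at 6 weeks, with day 1 apart from every later library. The log2 difference from day 1 was -0.55 (SE 0.15, limma adjusted p = 0.0116), then -1.41 (SE 0.15, adjusted p = 1.7e-05), then -1.0 (SE 0.15, adjusted p = 0.000192).

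GUK1, the guanylate kinase, went the other way. It was at 18.7, 20.1 and 18.8 FPKM at day 1, 25.7, 27.8 and 22.3 FPKM at 3 weeks, 33.7, 27.4 and 33.0 FPKM at 6 weeks and 28.5, 34.6 and 37.1 FPKM at 12 weeks. The 9 older libraries lay above all 3 at day 1. The log2 difference was 0.37 at 3 weeks (SE 0.13, limma adjusted p = 0.0419), 0.67 at 6 weeks (SE 0.13, adjusted p = 0.00144) and 0.76 at 12 weeks (SE 0.13, adjusted p = 0.000692). At 3 weeks it was not called after median ratio scaling (0.08, adjusted p = 0.641) and was called under 5 of 15 alternatives (adjusted p 0.0323 to 0.641). At 12 weeks the scaled value was called (0.55, adjusted p = 0.00385).

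The SVF libraries were not used to choose GMPR, so its course was tested there. In the iBAT SVF it was at 5.35, 2.21 and 9.69 FPKM at day 1, 1.28, 0.90 and 2.2 FPKM at 3 weeks, 0.53, 0.32 and 1.34 FPKM at 6 weeks and 0.87, 0.60 and 1.23 FPKM at 12 weeks. In the sBAT SVF it was at 10.4, 6.57 and 14.1 FPKM at day 1, 2.23, 1.61 and 2.46 FPKM at 3 weeks, 0.75, 3.25 and 0.97 FPKM at 6 weeks and 1.43, 1.13 and 0.86 FPKM at 12 weeks. In both depots the day 1 libraries were the highest, apart from later ones by a small margin in the iBAT SVF (2.21 against 2.2 FPKM). Neighbouring groups overlapped throughout the order of the 8 SVF means.

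GMPR fell in the SVF of both depots at every later age. In the iBAT SVF the log2 difference from day 1 was -1.32 at 3 weeks (SE 0.37, limma adjusted p = 0.0172), -1.84 at 6 weeks (SE 0.37, adjusted p = 0.00195) and -1.68 at 12 weeks (SE 0.37, adjusted p = 0.00162). The sBAT SVF values were -1.82 (adjusted p = 0.000214), -2.16 (adjusted p = 0.00017) and -2.36 (adjusted p = 5.23e-05). At 6 and 12 weeks the fall was called in both depots under all 16 alternatives. At 3 weeks in the iBAT SVF it was called under 11 of 16 (adjusted p 0.00274 to 0.114), and without replicate 3 of day 1, the library with 9.69 FPKM, the difference was -0.91 (adjusted p = 0.114). On the FPKM scale the day 1 mean was 6.39 times that at 12 weeks in the iBAT SVF and 9.06 times in the sBAT SVF. The 3 week value in the sBAT SVF rests on the libraries in which ADORA1 and LOC100009266 take most of the FPKM, and after median ratio scaling it was -0.92 (adjusted p = 0.0772, range over 15 alternatives 0.000103 to 0.132).

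Transcripts of brown adipocytes, red blood cells, skeletal muscle and other cell types also differed between the SVF libraries. UCP1 in the iBAT SVF was at 22.2, 5.58 and 50.5 FPKM in the 3 day 1 libraries, in the same order as GMPR, and at 0 to 0.05 FPKM in the 6 libraries at 6 and 12 weeks. UCP1 in the sBAT SVF was at 62.0, 60.9 and 81.8 FPKM at day 1, again in the order of GMPR, and at 0.06 to 2.04 FPKM at 12 weeks. Brown adipocyte markers (9 genes, UCP1 included) summed to 54.9, 25.9 and 69.9 FPKM in the day 1 iBAT SVF, in the order of GMPR. In the day 1 sBAT SVF they summed to 102, 106 and 113 FPKM, not in the order of GMPR. The summed level of 7 erythroid markers in the day 1 iBAT SVF was 373, 62.0 and 627 FPKM, also in the order of GMPR, and in the day 1 sBAT SVF it was 633, 262 and 419 FPKM, not in that order. At 12 weeks in the sBAT SVF the erythroid sum had a mean of 695 FPKM, against 438 FPKM at day 1, and GMPR was at no more than 1.43 FPKM there. In the iBAT SVF that sum was 8.97 to 11.9 FPKM at 6 weeks and 88.9 to 108 FPKM at 12 weeks, ages at which the ranges of GMPR overlapped. The summed level of 7 skeletal muscle markers at day 1 was 1696, 1953 and 18.8 FPKM in the iBAT SVF and 2105, 2559 and 592 FPKM in the sBAT SVF, so in each depot the day 1 library with the highest GMPR had the lowest muscle sum. At 12 weeks the muscle sum was 1.23 to 93.8 and 31.1 to 338 FPKM. With UCP1 at 0 to 0.05 FPKM, GMPR was still at 0.32 to 1.34 FPKM. General adipocyte markers (7 genes) summed to 364 to 706 FPKM at day 1 and 344 to 623 FPKM at 12 weeks in the iBAT SVF. In the sBAT SVF their sums were 260 to 290 and 787.5 to 1460 FPKM. Means of the macrophage sum at day 1 and 12 weeks were 310 and 128 FPKM in the iBAT SVF, and 314 and 209 FPKM in the sBAT SVF. Means of the progenitor sum were 14739 and 25948 FPKM, and 7229 and 10519 FPKM. Endothelial markers (6 genes) had mean sums of 553 and 241 FPKM in the iBAT SVF, and 443 and 545 FPKM in the sBAT SVF. In the day 1 iBAT SVF libraries the endothelial sum was 745, 268 and 648 FPKM, not in the order of GMPR. In those of the sBAT SVF it was 376, 249 and 705 FPKM, in the order of GMPR. The part of these cell types in the fall of GMPR, and of the other members, in the SVF was not tested.

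**Figure D4:**
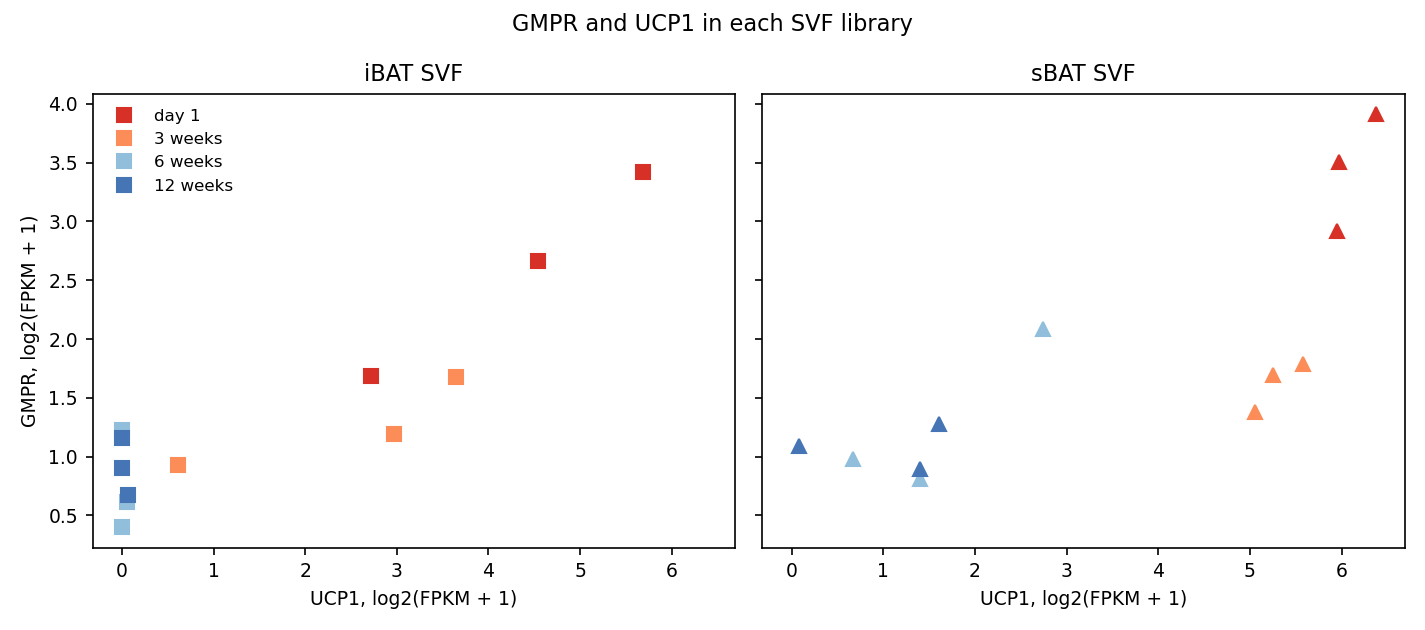
GMPR against UCP1 in each SVF library, both as log2(FPKM + 1), with iBAT SVF (squares) and sBAT SVF (triangles) in separate panels and age by colour. In both panels the day 1 library with the highest UCP1 has the highest GMPR; at 3 weeks in the sBAT SVF UCP1 is at 32.3 to 46.7 FPKM with GMPR at 1.61 to 2.46 FPKM.

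Of all 8 members in the iBAT SVF, 3 were called lower and none higher at each of 3, 6 and 12 weeks against day 1. The share of all 13274 genes called lower was 13.9%, 11.1% and 22.8%, the share called higher 4.86%, 4.29% and 14.5%, and the share called in either direction 18.7%, 15.4% and 37.3%. GMPR and IMPDH2 were among them at all 3 ages, ADSL at 3 and 6 weeks, and GMPS at 12 weeks. Leaving out replicate 1 of day 1 brought the count at 3 weeks to 1, and leaving out replicate 3 of 12 weeks brought that at 12 weeks to 1. Among the sBAT SVF libraries 7 members were called lower at 3 weeks, when 69.8% of all genes were lower, 1.41% higher and 71.2% called in either direction. At 6 weeks 3 were lower (8.29% of all genes lower, 27.5% higher, 35.8% in either direction), and at 12 weeks 3 were lower and 1 higher (5.86% and 38.3% of all genes, 44.1% in either direction). The medians over the 8 members at 12 weeks were -0.51 in the iBAT SVF and -0.24 in the sBAT SVF, beside -0.10 and 0.41 over all genes. After median ratio scaling the counts in the iBAT SVF differed only at 12 weeks, by 1 member called higher, GUK1 (19.3% of all genes higher, 20.2% lower). Scaling left 4 members called lower and none higher at each age in the sBAT SVF, with 17.8%, 16.0% and 15.1% of all genes lower and 14.8%, 15.6% and 14.8% higher. The median at 12 weeks was then -0.69 over the members and 0.01 over all genes. Joint tests over the 4 ages called 3 of 8 members in the iBAT SVF (36.4% of all genes) and 8 of 8 in the sBAT SVF (93.5%), the latter 4 after median ratio scaling (49.1%).

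IMPDH2 had the most abundant transcript among the GMP-making enzymes in the SVF by group mean and fell in both depots. It was at 57.5, 59.7 and 55.2 FPKM at day 1 and 37.7, 39.0 and 32.8 FPKM at 12 weeks in the iBAT SVF. The sBAT SVF had 63.3, 65.1 and 49.2 FPKM at day 1 and 36.1, 29.3 and 35.0 FPKM at 12 weeks. Day 1 lay above every older library in each depot. The log2 difference at 12 weeks was -0.64 in the iBAT SVF (SE 0.19, limma adjusted p = 0.0121) and -0.80 in the sBAT SVF (SE 0.19, adjusted p = 0.0022). At 6 weeks it was -1.06 (adjusted p = 0.000758) and -0.90 (adjusted p = 0.00104).

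IMPDH1 in the SVF was lower than IMPDH2 in 23 of 24 libraries. It lay between 7.42 and 16.0 FPKM in the iBAT SVF over all ages, with a log2 difference of -0.22 at 12 weeks (SE 0.31, limma adjusted p = 0.603). In the sBAT SVF it was at 10.2, 10.9 and 21.4 FPKM at day 1 and at 24.8, 25.2 and 16.7 FPKM at 12 weeks, groups that overlapped (0.67, SE 0.31, adjusted p = 0.0856). The late fall of IMPDH1 in whole fat had no called counterpart in the SVF of the same depot, but the difference between whole fat and SVF was not tested.

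ADSL was called lower at 3 and 6 weeks in both depots. In the iBAT SVF it was at 11.5, 11 and 11 FPKM at day 1, 6.50, 5.82 and 5.12 FPKM at 3 weeks, 4.62, 3.11 and 4.78 FPKM at 6 weeks and 9.0, 6.16 and 9.53 FPKM at 12 weeks. In the sBAT SVF it was at 13.2, 16.3 and 10.9 FPKM, then 1.39, 1.48 and 3.83 FPKM, then 5.33, 5.53 and 5.54 FPKM, then 9.20, 6.24 and 9.98 FPKM at these ages. The lowest group was thus 6 weeks in the iBAT SVF and 3 weeks in the sBAT SVF, and 12 weeks was not tested against either. At 3 weeks the log2 difference from day 1 was -0.84 (limma adjusted p = 0.0179) and -2.23 (adjusted p = 2.49e-07), the latter -1.35 after median ratio scaling. At 6 weeks the log2 difference was -1.25 (SE 0.24, limma adjusted p = 0.00118) in the iBAT SVF and -1.15 (SE 0.24, adjusted p = 0.000845) in the sBAT SVF, and at 12 weeks -0.42 (adjusted p = 0.17) and -0.62 (adjusted p = 0.0391, called under 10 of 16 alternatives).

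GMPS was a low transcript in the SVF. In the iBAT SVF it was at 5.81, 5.97 and 6.64 FPKM at day 1 and at 3.91, 3.55 and 3.74 FPKM at 12 weeks, groups that did not overlap (log2 difference -0.59, SE 0.22, limma adjusted p = 0.0397). In the sBAT SVF it was at 6.90, 7.37 and 4.30 FPKM at day 1 and 7.31, 6.50 and 4.88 FPKM at 12 weeks (0.02, SE 0.22, adjusted p = 0.944). The iBAT SVF difference was called under 6 of 16 alternatives (adjusted p 0.00921 to 0.115), and not with the replicate number as a block (adjusted p = 0.0663); after median ratio scaling the sBAT SVF difference was -0.39 (adjusted p = 0.126).

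HPRT1 was at 17.7, 18.7 and 28.3 FPKM in the day 1 iBAT SVF and at 10.3, 14.2 and 11.8 FPKM at 12 weeks. These groups did not overlap, but the log2 difference of -0.76 (SE 0.31, limma adjusted p = 0.0577) missed the threshold. The sBAT SVF difference was -0.50 as deposited (adjusted p = 0.19) and -0.96 after median ratio scaling (adjusted p = 0.00735). GUK1 was between 22.8 and 51.1 FPKM in the day 1 and 12 week SVF libraries, with differences of 0.47 in the iBAT SVF (adjusted p = 0.152) and 0.06 in the sBAT SVF (adjusted p = 0.872). The first was called after median ratio scaling (0.59, adjusted p = 0.0392) and the second changed sign without being called (-0.42, adjusted p = 0.16). GMPR2 was at 10.3, 9.54 and 8.65 FPKM at day 1 and 16.8, 15.3 and 15.0 FPKM at 12 weeks in the sBAT SVF, a rise of 0.67 (SE 0.19, adjusted p = 0.0067) that was not called after median ratio scaling (0.22, adjusted p = 0.285). In the iBAT SVF its difference was 0.20 (adjusted p = 0.413).

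**Figure D5:**
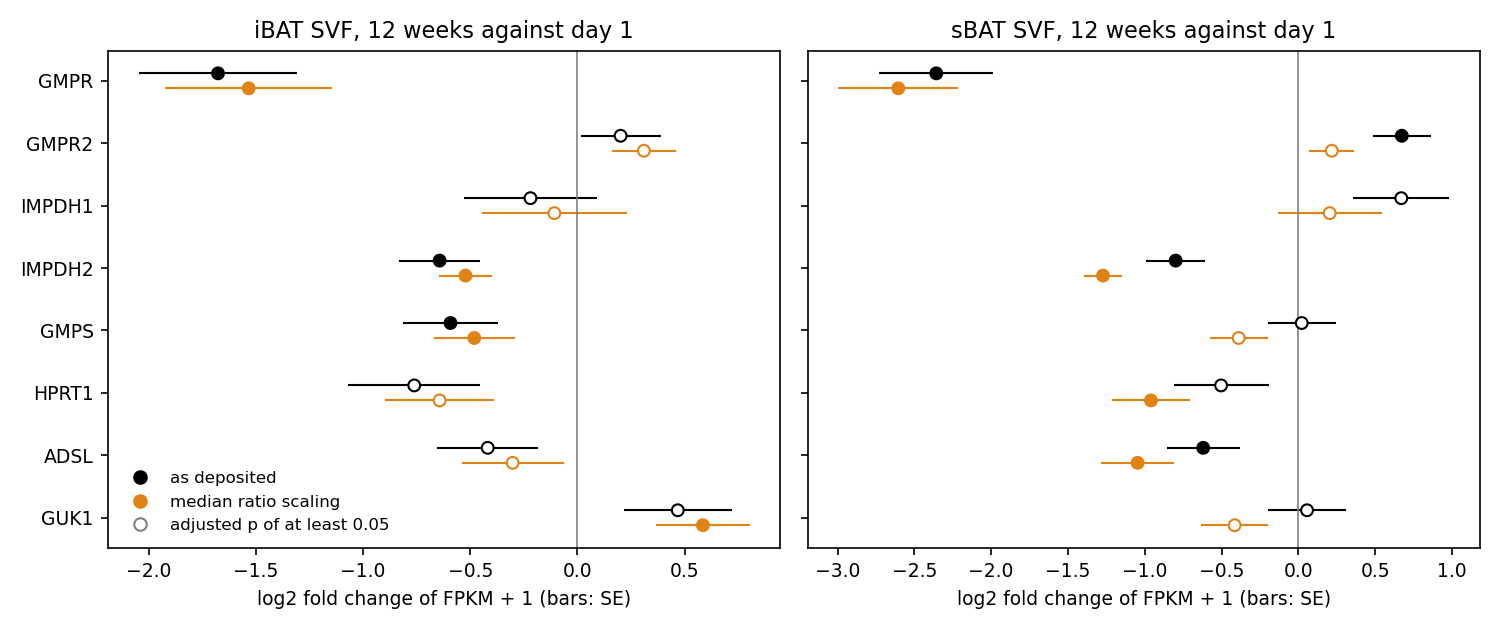
Log2 fold change of each member at 12 weeks against day 1 in the iBAT SVF and the sBAT SVF, with SE bars, for the values as deposited (black) and after median ratio scaling (orange). Filled points have an adjusted p under 0.05. GMPR and IMPDH2 are filled in both panels under both scalings.

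The depots were then compared at each age. No member was called between iBAT SVF and sBAT SVF at day 1 (limma with Benjamini-Hochberg adjustment, 0.414% of all genes called). There GMPR had the largest difference, -0.86 for iBAT minus sBAT (SE 0.37, unadjusted p = 0.0307, adjusted p = 0.289), and was the only member with an unadjusted p under 0.05. At 3 weeks 6 members were called higher in the iBAT SVF, when 76.0% of all genes were, and 76.3% in either direction. After median ratio scaling none of the 6 was called, and GMPR was called lower in the iBAT SVF instead (-1.31, adjusted p = 0.0447, 7.94% of all genes called, 4.01% lower). At 6 weeks no member was called (2.47% of all genes), and GMPR2 was the only member with an unadjusted p under 0.05.

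At 12 weeks IMPDH1 was the only member called, lower in the iBAT SVF by 1.06 on the log2 scale (a difference of -1.06, SE 0.31, limma adjusted p = 0.0212, 22.2% of all genes called, 20.4% lower). Its levels were 8.47, 15.3 and 7.53 FPKM in the iBAT SVF and 24.8, 25.2 and 16.7 FPKM in the sBAT SVF, which did not overlap. After median ratio scaling it was not called (-0.69, adjusted p = 0.207), while IMPDH2 (0.50, adjusted p = 0.0157) and GUK1 (0.91, adjusted p = 0.0121) were called higher in the iBAT SVF (5.50% of all genes higher, 9.76% in either direction). With the replicate number as a block, which pairs the depots at this age, IMPDH1 kept its call (adjusted p = 0.0161). It was called under 9 of 16 alternatives (adjusted p 0.00813 to 0.215), and no member was called when replicate 1 or 3 of the iBAT SVF, or replicate 1 or 2 of the sBAT SVF, was left out.

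The change from day 1 to 12 weeks was not called as different between the depots for any member as deposited (18.4% of all genes called). None had an unadjusted p under 0.05 in limma, and the lowest was that of IMPDH1 at 0.0568. For GMPR the difference between the depots' changes was 0.68 (SE 0.52, adjusted p = 0.357). After median ratio scaling IMPDH2 was called (0.75, adjusted p = 0.0445, 1.23% of all genes called).

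Genes with a course like that of GMPR were ranked by the Pearson correlation of log2(FPKM + 1), as a description. Only tested genes with a group mean of at least 10 FPKM were ranked, and those named only by LOC and a number were left out. Over the 12 total iBAT libraries, the 5 highest of 6448 genes were TUFM, a mitochondrial translation factor (r = 0.995), GNAS, the stimulatory G protein subunit (0.994), ACADVL, an enzyme of fatty acid oxidation (0.992), SLC16A7, a monocarboxylate transporter (0.991), and UQCRC1, a subunit of respiratory complex III (0.991). The mean of SLC16A7 at day 1 was 63.0 times that at 12 weeks, and the 4 others had ratios of 6.05 to 8.22, all below that of GMPR. UCP1 ranked 57 (r = 0.974). The 12 libraries fall into 4 ages, so many genes that decline with age correlate closely. Over the 24 SVF libraries, LGALS9, a galectin (r = 0.853), PPBP, a platelet chemokine (0.844), UCP1 (0.844), EGLN3, an oxygen-sensing hydroxylase (0.836), and SPP1, osteopontin (0.834), came first among 6303 genes.

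The other genes of purine metabolism were taken from a list of 55 matched genes in total. In total iBAT at 12 weeks against day 1, 6 of the 48 tested were called higher and 15 lower, where 31.3% of all genes were called higher and 15.7% lower, with a median log2 difference of -0.17 beside 0.19 over all genes. After median ratio scaling 5 were higher and 20 lower, beside 23.6% of all genes higher and 22.6% lower (median -0.37 beside 0.02). Among called genes with a group mean of at least 5 FPKM and no overlap between the ages, the largest falls were in LOC100009266, whose RefSeq entry has the synonym UOX (urate oxidase), from 12682 ± 2319 to 1645 ± 195 FPKM (log2 difference -2.94, SE 0.33, limma adjusted p = 2.71e-05), in NT5M, a mitochondrial nucleotidase (-2.27), in SHMT1, which supplies folate units (-1.92), and in NME4, a mitochondrial nucleoside diphosphate kinase (-1.90). Together with ADORA1, LOC100009266 took most of the FPKM in the sBAT SVF at 3 weeks. Whether its values stem from transcripts of that gene was not tested. By the same limits the largest rises were in SPR (1.97) and PTS (0.69), later enzymes of tetrahydrobiopterin synthesis, and in PRPSAP2 (1.60) and PRPS1 (0.86), of the step that makes the ribose phosphate donor. GCH1, the GTP-using first enzyme of tetrahydrobiopterin synthesis, fell from 3.51 ± 1.63 to 0.577 ± 0.282 FPKM (-1.47, limma adjusted p = 0.000622), and ADA, adenosine deaminase, rose from 0.627 ± 0.135 to 2.35 ± 0.781 FPKM (1.02, adjusted p = 0.00679). Both lay below those limits by level and were named after their values were seen. The rise of PTS was not called after median ratio scaling (0.51, adjusted p = 0.0669). PRPS1 rose from 39.4 ± 2.25 to 72.7 ± 9.49 FPKM (SE 0.21, adjusted p = 0.00618).

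Of the 9 tested genes that make the ribose phosphate donor or build IMP, ADSL included, 5 fell in each SVF, and 1 rose in the iBAT SVF and 2 in the sBAT SVF. The shares of all genes called lower were 22.8% and 5.86%, and called higher 14.5% and 38.3%. These counts in the iBAT SVF were the same after median ratio scaling (20.2% of all genes lower, 19.3% higher). In the sBAT SVF 6 then fell and 1 rose (15.1% of all genes lower, 14.8% higher). ATIC was called there (-0.89, limma adjusted p = 5.37e-05) and PRPS1 was not (0.043, adjusted p = 0.837). The genes that fell in the iBAT SVF as deposited were PPAT (-1.29), PAICS (-1.10), PFAS (-0.99), GART (-0.94) and ATIC (-0.71). Those of the sBAT SVF were PPAT (-1.03), PAICS (-0.87), GART (-0.87), ADSL (-0.62) and PFAS (-0.57), and ATIC was at -0.43 (limma adjusted p = 0.0516). PPAT, which commits ribose phosphate to the pathway, had means of 2.81 and 2.95 FPKM at day 1 and 0.553 and 0.923 FPKM at 12 weeks in iBAT SVF and sBAT SVF. In total iBAT 1 of the 8 tested genes of this group fell, ADSL, and 2 rose, beside 15.7% of all genes lower and 31.3% higher. After that scaling ATIC was called lower too (-0.38, limma adjusted p = 0.0263), beside 22.6% of all genes lower and 23.6% higher. Without the 8 members, 6 purine genes of 50 were called higher and 16 lower in the iBAT SVF (median -0.36 beside -0.10 over all genes), and 10 higher and 12 lower in the sBAT SVF (median -0.11 beside 0.41). After median ratio scaling the sBAT SVF counts were 4 higher and 21 lower, beside 14.8% of all genes higher and 15.1% lower.

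Of 6 enzymes that supply folate-borne carbon to this synthesis, 5 fell in each SVF, where 22.8% (iBAT SVF) and 5.86% (sBAT SVF) of all genes were called lower. MTHFD2, which makes formyl units in mitochondria, went from 74.1 ± 5.26 to 24.1 ± 3.88 FPKM in the iBAT SVF (log2 difference -1.59, SE 0.22, limma adjusted p = 2.21e-05). Its sBAT SVF level went from 52.0 ± 6.87 to 23.8 ± 1.13 FPKM (-1.09, SE 0.22, adjusted p = 0.00063). RRM2, the ribonucleotide reductase subunit of dividing cells, fell in the iBAT SVF from 23.3 ± 5.99 to 6.21 ± 0.85 FPKM (-1.73, SE 0.31, adjusted p = 0.000313). The summed level of 8 cell cycle markers was 96.4 to 106 FPKM at day 1 and 54.2 to 65.0 FPKM at 12 weeks in the iBAT SVF, and 84.0 to 116 and 86.4 to 112 FPKM in the sBAT SVF. Its part in these falls was not tested. AK3, a mitochondrial adenylate kinase family member that uses GTP, rose in the iBAT SVF by 0.91 (adjusted p = 0.00288) and in the sBAT SVF by 1.52 (adjusted p = 1.98e-05). By the limits used for total iBAT, PRPSAP2 (1.02 and 1.38) and ADA (0.85 and 1.31) also rose in these fractions. NME2 (0.57) rose in the iBAT SVF and DGUOK (1.05) in the sBAT SVF. These rises are given as deposited, where 14.5% of all genes were called higher in the iBAT SVF and 38.3% in the sBAT SVF. After median ratio scaling the shares were 19.3% and 14.8%. In the sBAT SVF the median log2 difference over all genes was 0.41 as deposited and 0.01 after that scaling. By the limits used for total iBAT, the other falls were MTHFD1 (-0.96) in the iBAT SVF, and LOC100009266 (-2.44), SHMT2 (-1.24) and MTHFD1L (-1.24) in the sBAT SVF. Whether the LOC100009266 values stem from transcripts of that gene was not tested. In the iBAT SVF its day 1 libraries (2761 to 17364 FPKM) and 12 week libraries (5686 to 9432 FPKM) overlapped.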

How the data were processed

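Bulk RNA libraries of total iBAT (12) and SVF (24) were used, and the 3 single-cell samples were left out. The deposited tables, 1 for total iBAT and 1 for the SVF, hold FPKM per the file headers, and all 36 columns were mapped to samples by name. Per the submitters' processing notes HISAT2 2.0.4, Bowtie2 2.2.5 and DESeq2 were used with the OryCun2.0 build; the counting tool is not given in the sources used here. The absolute depth is unknown. An estimate of relative depth was made from the steps between low values, with settings chosen among many tried by their error on simulated depths and the fit between pairs of libraries. In total iBAT it was 0.562 to 0.623 at day 1 and 1.35 to 1.37 at 12 weeks (1 is the geometric mean of the table); in the SVF it could not be settled.

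Values were taken as log2(FPKM + 1), which understates fold changes of low genes. Genes reaching 1 FPKM in 3 or more libraries were tested with limma 3.58.1 in R 4.3.3 (variance trend, 1 mean per group, 1 fit per table), with two-sided p-values adjusted by Benjamini-Hochberg over all genes tested, and called under 0.05. The scripts were tested on simulated data. IMPDH ratios, with 0.1 added to each value, were tested over ages by exact permutation of an F statistic. Alternatives were a pseudocount of 0.1, filters at 5 FPKM and none, median ratio and upper quartile scaling, leaving out ADORA1 and LOC100009266 with rescaling, no variance trend, only the groups compared, a replicate block and each library left out. Same-numbered iBAT SVF and sBAT SVF libraries deviated together at 12 weeks (r = 0.252, 0.5 and 0.315) but not at every other age. At day 1 their r was 0.065, 0.584 and 0.331. It was -0.192, 0.193 and -0.254 at 3 weeks, and -0.153, -0.28 and -0.116 at 6 weeks. The labels name no link between same-numbered libraries of different ages, so in comparisons of ages the block may be arbitrary. In total iBAT the deviations of such libraries had r of -0.34 to 0.17.

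Members and gene lists were chosen with earlier results of these data known. All members were named. So were up to 4 called purine genes rising and 4 falling per tissue at 12 weeks (a mean of at least 5 FPKM in 1 group, no overlap). The 5 genes most like GMPR per table were named too (a group mean of at least 10 FPKM, without genes named only by LOC and a number). The genes that build IMP, and GCH1 and ADA in total iBAT, were named after their values were seen. A RefSeq table of another assembly gave names only.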

Additional observations from a re-analysis of the deposited data

How the results depend on the processing

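Some counts of members called changed by more than 1.5 times. In the order median ratio scaling, upper quartile scaling and without ADORA1 and LOC100009266, the count against day 1 went from 7 to 4, 4 and 3 in the sBAT SVF at 3 weeks and from 8 to 4, 4 and 5 over any age. Over all genes, the calls at 3 weeks went from 9447 of 13274 to 4275 of 13118, 4223 of 13107 and 4171 of 13640. Over any age they went from 12407 to 6435, 6446 and 6293. Between depots the count of members went from 6 to 1, 1 and 3 at 3 weeks and from 1 to 2, 2 and 2 at 12 weeks. Over all genes the calls went from 10130 to 1042, 1085 and 2160 at 3 weeks and from 2953 to 1280, 1302 and 3231 at 12 weeks. For the members at 12 weeks a fit of only the groups compared also gave 2. An added fit without the sBAT SVF 3 week libraries, chosen after seeing the data, gave 3. Without both genes the iBAT SVF at 12 weeks and the sBAT SVF at 6 weeks went from 3 to 5 members, and the depots at 6 weeks from 0 to 1, as in that added fit. Without both genes, calls over all genes in these comparisons went from 4953 to 4707, from 4749 to 3953 and from 328 to 1283. The iBAT SVF over any age went from 3 members to 6 with only the groups compared and to 7 in the added fit. With only the groups compared, calls over all genes went from 4838 of 13274 to 6512 of 12478. The depot by age interaction went from 0 to 1 member under both scalings, and from 2437 to 161 and 150 over all genes. With each library left out the count of members was 2 to 3 in total iBAT at 3 weeks, 1 to 3 and 1 to 2 in the iBAT SVF at 3 and 12 weeks, and 0 to 2 between depots at 12 weeks (2 without replicate 3 of the sBAT SVF). Calls over all genes were then 3899 to 4720 (5363 with all libraries), 1243 to 2067 (2486), 3583 to 4340 (4953) and 910 to 3311 (2953). The log2 change of the IMPDH2 to IMPDH1 ratio in the sBAT SVF was -1.52 with the replicate block, where it lost its call, and -1.99 to -1.28 with each library left out. The block also ended the calls of GUK1 in total iBAT at 3 weeks (0.37, adjusted p = 0.073), GMPR2 there at 12 weeks (0.38, adjusted p = 0.0529) and GMPS in the iBAT SVF at 12 weeks (-0.59), and changed no other call of the results recomputed with it.

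Some log2 differences changed sign. With each library left out, total iBAT at 3 weeks gave -0.17 to 0.10 for GMPR2 and -0.053 to 0.39 for IMPDH1, and the sBAT SVF at 12 weeks gave -0.18 to 0.16 for GMPS and -0.13 to 0.18 for GUK1. IMPDH1 in total iBAT at 3 weeks was -0.12 after median ratio and -0.099 after upper quartile scaling, and GMPR2 there at 6 weeks was -0.023 after median ratio scaling. In the same order of 3 settings as above, the sBAT SVF gave GMPR2 0.19, 0.20 and 0.25 and GUK1 0.0, 0.008 and 0.054 at 3 weeks, and GMPS -0.39, -0.37 and -0.34 and GUK1 -0.41, -0.40 and -0.35 at 12 weeks. Between depots at 3 weeks GMPR2 was -0.29, -0.25 and -0.61 (adjusted p = 0.0207), and without both genes IMPDH2 was -0.10, GMPS -0.24, HPRT1 -0.20, ADSL -0.073 and GUK1 -0.054. At 12 weeks GMPR between depots was 0.025 after median ratio and 0.033 after upper quartile scaling. The causes were not tested. The absolute depth is unknown, so the counting error of GMPR near 1 FPKM cannot be given.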

Other observations

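In the RefSeq gene order, used for neighbours only, GMPR lies between MYLIP and ATXN1. In total iBAT, MYLIP was at 26.9 ± 9.78 FPKM at day 1 and 22.2 ± 1.30 FPKM at 12 weeks (SD, n = 3, log2 difference -0.19, limma adjusted p = 0.537). ATXN1, a transcriptional repressor, was at 27.4 ± 19.8 and 3.46 ± 0.1 FPKM (-2.44, adjusted p = 0.000183), with a wide spread at day 1. STMND1, the third gene on the side of ATXN1, was at 0 FPKM in all day 1 libraries.

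LOC100009266 reached 142855 to 222901 FPKM in the sBAT SVF at 3 weeks and 54010 to 95324 FPKM at day 1, against 783 to 43456 FPKM over the 12 iBAT SVF libraries and 751 to 15330 FPKM in total iBAT. Within the sBAT SVF at 6 weeks it was at 1703, 31689 and 1078 FPKM, and the library with 31689 FPKM was also the highest in UCP1 (5.71 FPKM) and in GMPR (3.25 FPKM).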
